A study of Arabidopsis thaliana with 4 samples.

Results

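The defensin-like genes of Arabidopsis thaliana encode small secreted peptides, and they are described here by the Pol V peak summits in and around them. A protein-coding gene was taken as a member when the product or note text of its mRNA or coding sequence in the RefSeq TAIR10.1 annotation held the words defensin-like. This gave 119 members out of 27444 protein-coding genes on the 5 chromosomes. Of these, 108 were found by the product text and 11 by the note text alone. The rule uses gene annotation only and none of the Pol V values. Another 54 genes carry the words only in the note of the gene itself. They were not counted as members and are called the gene-note genes below.

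The series holds 4 anti-FLAG ChIP-seq libraries from inflorescences, 1 library each from plants carrying DRD1-FLAG, DMS3-FLAG and RDM1-FLAG transgenes, described in the study's methods as 3xFLAG lines, and from untransformed Col-0. Their signals were not analysed here, so no comparison among DRD1-FLAG, DMS3-FLAG, RDM1-FLAG and Col-0 plants was made. The values come from 1 list of 11478 Pol V peak summits, which the authors made from published Pol V ChIP and no-antibody control reads to centre their plots. A summit is the single base at the top of a peak, and the peak caller gave each one a whole-number score, which has no named unit, is not a read count and runs from 28 to 1615 in the list.

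Pol V is a plant-specific RNA polymerase whose transcripts stay on chromatin and recruit the machinery of RNA-directed DNA methylation. DRD1, a chromatin remodeller, DMS3, a protein related to chromosome maintenance proteins, and RDM1 form the DDR complex, which is needed for Pol V to associate with chromatin. Defensin-like peptides are made with a signal peptide for secretion and a short mature part held together by disulfide bonds between cysteines. Relatives are known for killing fungi and for signalling between pollen and pistil. In a typical gene the first exon encodes the signal peptide and the second exon the cysteine-rich mature peptide.

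Coding segments and cysteine codons were counted in the members, and no signal peptide was searched for. Of the 119 members, 112 (94.1%) had 2 coding segments, and the median member encoded 84 residues (range 57 to 188) with 8 cysteine codons (range 4 to 17). In the members with 2 segments, 929 of 996 cysteine codons (93.3%) were in segment 2, which holds 74.4% of the coding bases. The median gene length was 520 bp (range 177 to 3572 bp), against 2078 bp for all protein-coding genes, and 100 members fell in the shortest of 10 length classes, up to 770 bp. All 119 members had a start codon and a stop codon, and 0 had an internal stop. The sequence within 1000 bp of the members was AT-rich, with a median GC content of 30.7%, against 36.6% for all genes. Only 5 members have a gene symbol in the annotation. These are PDF1.4, a plant defensin, and LCR43, LCR50, LCR65 and LCR85, which are low-molecular-weight cysteine-rich genes.

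The coding segments of 3 members are shown first because each holds a Pol V summit and they are near copies of one another. They and the 2 pairs after them were picked once the summit positions had been seen, and a summit lay inside 8.03% of all protein-coding genes. Sequences are from the TAIR10.1 genome, 5′ to 3′ on the coding strand, and capitals mark in-frame cysteine codons. AT5G08055 segment 2 lies at chr5:2579615-2579802 on the plus strand, AT5G08315 segment 2 at chr5:2676177-2676364 on the minus strand and AT1G33607 segment 2 at chr1:12187018-12187198 on the minus strand.
AT5G08055: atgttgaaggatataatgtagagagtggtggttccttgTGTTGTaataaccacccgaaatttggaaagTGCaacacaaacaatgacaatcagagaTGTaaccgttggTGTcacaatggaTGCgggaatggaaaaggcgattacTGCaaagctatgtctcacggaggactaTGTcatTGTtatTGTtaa
AT5G08315: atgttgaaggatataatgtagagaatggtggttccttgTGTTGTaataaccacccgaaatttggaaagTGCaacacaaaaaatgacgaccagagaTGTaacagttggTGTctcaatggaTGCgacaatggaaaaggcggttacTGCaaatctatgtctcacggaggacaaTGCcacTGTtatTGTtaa
AT1G33607: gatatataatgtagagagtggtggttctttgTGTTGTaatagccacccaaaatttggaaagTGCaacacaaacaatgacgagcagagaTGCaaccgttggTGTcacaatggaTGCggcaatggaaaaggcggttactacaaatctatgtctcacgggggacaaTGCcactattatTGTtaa
The capitals show the cysteine spacing of these 3 segments, which hold 10, 10 and 8 cysteine codons. The summit of AT5G08055 was at base 72 of its 188 bases with a score of 398. The summit of AT5G08315 was at base 27 of 188 with a score of 229, and that of AT1G33607 at base 172 of 181 with a score of 207. In all 3 copies the listed summit base thus fell in segment 2, at different bases of it. The list gives no peak width, so whether these places truly differ is not known.

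A pair on chromosome 5 is printed because both genes and a further copy held a summit. AT5G48595 segment 2 lies at chr5:19700775-19701022 and AT5G48605 segment 2 at chr5:19710352-19710578, both on the plus strand. The first capitals of AT5G48605 are the last bases of a cysteine codon that the intron splits.
AT5G48595: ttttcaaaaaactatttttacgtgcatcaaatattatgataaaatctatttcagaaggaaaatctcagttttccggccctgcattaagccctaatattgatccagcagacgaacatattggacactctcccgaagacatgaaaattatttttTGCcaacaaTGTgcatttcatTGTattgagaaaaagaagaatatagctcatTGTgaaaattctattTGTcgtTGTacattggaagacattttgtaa
AT5G48605: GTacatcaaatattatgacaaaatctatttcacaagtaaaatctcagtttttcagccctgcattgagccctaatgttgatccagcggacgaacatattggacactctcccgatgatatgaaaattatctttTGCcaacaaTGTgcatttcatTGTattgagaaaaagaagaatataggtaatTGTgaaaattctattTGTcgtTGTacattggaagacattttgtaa
AT5G48595 had a score of 73 at base 153, and AT5G48605 had a score of 153 at base 104. Their other near copy, the gene-note gene AT5G48515, had a summit with a score of 144.

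The last pair is AT4G14276 and AT5G52605, whose segments encode 10 cysteines each. AT4G14276 segment 2 lies at chr4:8220967-8221193 on the plus strand and AT5G52605 segment 2 at chr5:21345216-21345427 on the minus strand.
AT4G14276: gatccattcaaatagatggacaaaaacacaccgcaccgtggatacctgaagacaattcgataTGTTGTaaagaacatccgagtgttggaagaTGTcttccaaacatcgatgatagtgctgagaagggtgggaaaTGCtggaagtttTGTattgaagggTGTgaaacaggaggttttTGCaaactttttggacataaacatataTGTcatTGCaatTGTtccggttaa
AT5G52605: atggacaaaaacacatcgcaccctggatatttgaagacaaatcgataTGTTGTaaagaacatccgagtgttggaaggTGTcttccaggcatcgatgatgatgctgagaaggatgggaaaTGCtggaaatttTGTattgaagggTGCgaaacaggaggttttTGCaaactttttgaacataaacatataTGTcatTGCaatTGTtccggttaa
AT4G14276 had a score of 221 at base 102 of 227, and AT5G52605 had a score of 66 at base 27 of 212. A further copy, AT5G39645, had no summit inside but 1 at 172 bp downstream of its end, with a score of 406, at a position inside AT5G39640.

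The first comparison asked how often a defensin-like gene has a Pol V summit inside it or within 1000 bp, against all genes and against genes of like length and gene density. Of the 119 members, 45 had a summit there, which is 37.8% (95% Wilson interval 29.6 to 46.8%). The share over all 27444 protein-coding genes was 27.6%. Genes with the members' mix of length and gene density had 29.9%, so the members were 7.89 percentage points above them (interval -0.31 to 16.9). That matched share weights the genes in each of 10 length classes and 5 density classes by the members in the class, using 8016 genes, and density is the number of other protein-coding genes within 50 kb. The matched share lay just inside the lower end of the members' interval, and the share of all genes below it. The interval covers counting error only, and members that are copies of one another or share a stretch are not independent, so the excess is a description and no test was made.

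A summit lay inside 14 members, 11.8% (interval 7.14 to 18.8%), against 7.66% for matched genes and 8.03% for all genes. Upstream of the start, 16 members had a summit within 1000 bp, 13.4%, against 14.4% for matched genes and 14.5% for all genes. Downstream of the end, 25 members had one, 21% (interval 14.7 to 29.2%), against 13.8% for matched genes and 10.5% for all genes. The members' excess over matched genes was thus 4.10 points inside the gene and 7.2 points downstream of it, and the upstream difference was -0.93 points. The difference between upstream and downstream was -7.56 points in the members, 0.57 points in matched genes and 4.0 points in all genes. The members' interval for this difference, -16.7 to 1.54 points, included 0, and the value was -4.2 points with summits merged within 1000 bp and 0 with a window of 2000 bp. Members also had more bases outside genes on both sides, on average 784 bp of the 1000 bp upstream and 696 bp of the 1000 bp downstream, against 697 and 626 bp for matched genes. Matching on length and bases outside genes in place of gene density raised the matched share within 1000 bp to 32.97%, which left the members 4.85 points above it, and inside the gene the excess was 3.32 points.

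In steps of 500 bp, the members' largest excess over matched genes was in the first step downstream. From 1 to 500 bp downstream, 15 members had a summit (12.6%), against 7.58% of matched genes and 5.59% of all genes. In the next 500 bp downstream there were 10 (8.40%), against 6.66% of matched genes. From 1 to 500 bp upstream there were only 5 (4.20%), against 7.22% of matched genes, and in the 500 bp beyond these there were 11 (9.24%), against 7.57%. The intervals of the members included the matched share at each upstream step, and at the first downstream step the matched share lay just below the interval, which starts at 7.79%. The excess was not confined to bases near the gene. With a window of 500 bp, 26.9% of members had a summit, against 20.5% of matched genes. With a window of 2000 bp it was 54.6% against 41.1%.

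**Figure D1:**
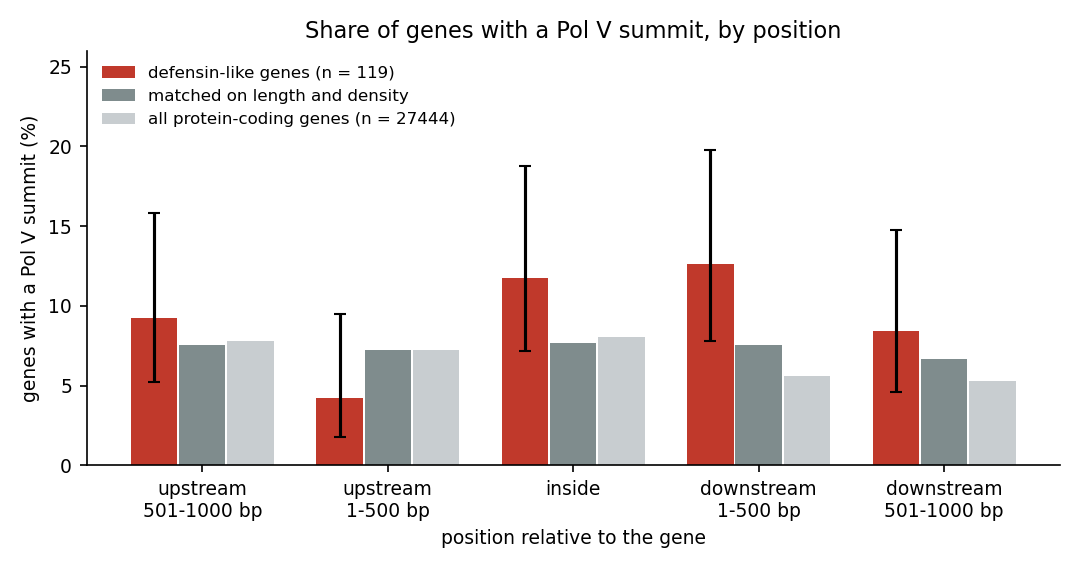
Share of genes (y axis, percent) with a Pol V summit in each step along the gene (x axis) for the 119 defensin-like genes, for genes matched on length and gene density and for all protein-coding genes. Bars on the members are 95% Wilson intervals. The members are lowest in the 500 bp before the start, at 4.20%, and highest in the 500 bp after the end, at 12.6%.

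The 45 members held 55 distinct summits, since 1 summit was shared by AT3G24508 and AT3G24510. No summit was found near 74 members, 35 had 1, 9 had 2 and AT5G55565 had 3. Among the 45, 17 had a summit downstream only, 9 upstream only and 9 inside only, 5 had both an inside and a flanking summit, and 5 had one on each side. Of the 25 downstream summits, 17 had no other protein-coding gene within 1000 bp and only 3 were nearer to another gene, and their median distance to the member's end was 432 bp. Of the 16 upstream summits, 8 were nearer to another gene, and their median distance to the start was 638.5 bp. The difference between these counts was not tested.

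The highest scores near members were mostly downstream. AT2G22805 had the highest, 1042 at 178 bp past its end, and this summit ranked 138 of 11478 in the whole list. AT5G46877 had 947 at 106 bp, AT2G12475 had 877 at 643 bp, AT1G35537 had 691 at 508 bp, AT4G22214 had 625 at 908 bp and AT4G22235 had 584 at 891 bp, all past the end. The highest upstream summit was that of AT1G13605, with 835 at 213 bp before the start. AT5G55565 followed with 545 at 520 bp, and AT2G34123 with 474 at 446 bp, a position inside AT2G34100. The highest inside a member was AT2G42885, with 496 in an untranslated exon. The stretches beside the 2 highest summits are printed so that the base composition can be seen, with the 21 bases centred on the summit in capitals. The AT2G22805 stretch is at chr2:9713136-9713343 and the AT5G46877 stretch at chr5:19026295-19026430, both on the plus strand and starting at the base after the annotated gene end.
AT2G22805: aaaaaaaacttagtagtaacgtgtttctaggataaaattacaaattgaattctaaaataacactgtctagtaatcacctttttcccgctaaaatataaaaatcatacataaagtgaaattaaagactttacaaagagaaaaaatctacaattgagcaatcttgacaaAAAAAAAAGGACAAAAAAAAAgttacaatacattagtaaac
AT5G46877: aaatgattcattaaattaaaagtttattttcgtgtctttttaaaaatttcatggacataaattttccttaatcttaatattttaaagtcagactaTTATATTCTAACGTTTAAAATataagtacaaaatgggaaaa
The GC content of these stretches was 24.0% and 19.1%. In the 201 bp around the summit it was 31.3% for AT2G22805 and 26.9% for AT5G46877. Over all member summits, 201 bp around the summit had a mean GC content of 33.4% ± 7.02 (SD, n = 55), against 34.1% ± 7.93 (SD, n = 7537) for the other summits within 1000 bp of a gene, so both of these summits were within 1 SD of the members' mean.

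The 55 member summits had a median score of 240 (quartiles 104 to 401.5), against 176 for the 7537 other gene-proximal summits (quartiles 80 to 369), a difference of 64 (interval -23 to 149). The difference was 40 with summits merged within 1000 bp, 29.4 with means in place of medians, 20 with a window of 2000 bp and 11 with summits of score at or above the median of the list. The median was 264 for the 25 downstream, 221 for the 15 inside and 187.5 for the 16 upstream summits. Of the 55, 17 (30.9%) were at or above 352, the upper quartile of the list. The ranges overlapped widely, with member scores from 38 to 1042, and the score is set by the peak caller from reads whose depth is not known here.

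**Figure D2:**
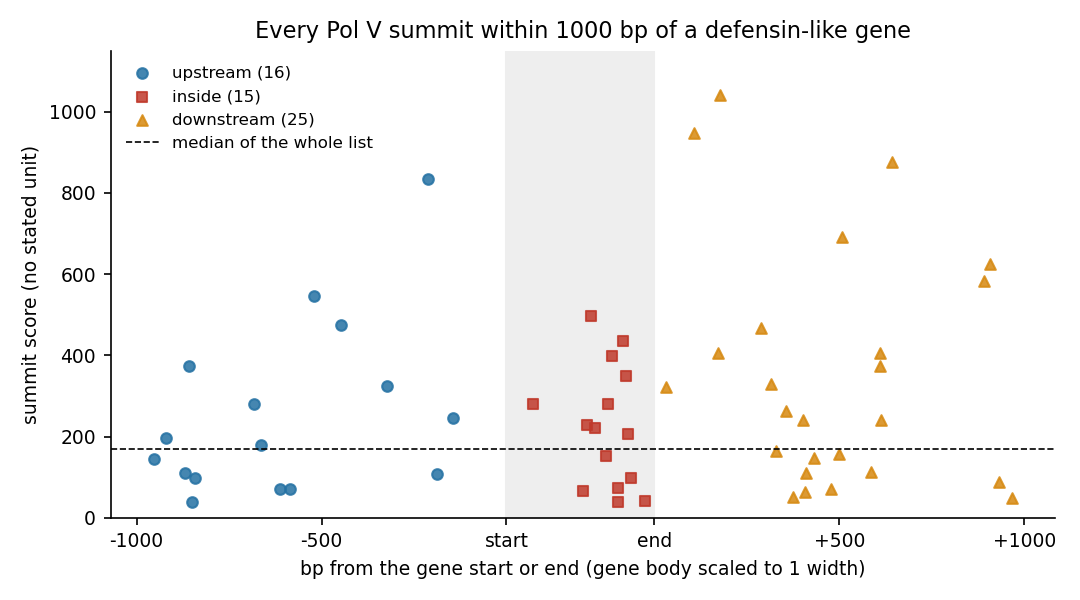
Score (y axis, no stated unit) of every Pol V summit within 1000 bp of a defensin-like gene, placed by distance in bp before the start, inside the gene (grey, every gene scaled to one width) or after the end (x axis). The dashed line is the median of the list, and 4 of the 5 highest points are downstream, with the other upstream.

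The summits inside members were placed in the 3′ part of the gene. There were 15 such summits in 14 members, and 14 of the 15 (93.3%, interval 70.2 to 98.8%) lay past the midpoint of the gene from start to end, with a median at 71.1% of gene length. In other genes up to 770 bp, 95 of 201 inside summits (47.3%, interval 40.5 to 54.2%) were past the midpoint, and in all other genes 1428 of 2603 (54.9%). The 1 exception among the member summits was AT1G31772, at 17.9% of its length, in an intron. Several members with an inside summit are near copies of one another, and AT5G55565 holds more than 1. The 15 summits are therefore not independent, their interval covers counting error only, and the difference from other genes was not tested. By the annotation at the listed base, 11 of the 15 were in coding sequence and 1 was in an untranslated exon (AT2G42885). The other 3 were in introns (AT1G31772, AT4G08039 and AT5G55565). How precisely a summit is placed within these short genes is not known. Over the pooled gene bases of all members, coding sequence makes up 41.1% and segment 2 alone 28.7%. These bases include long genes such as AT5G55565, and the share within the genes that hold the summits was not computed. Of the 15 summits, 10 were in segment 2, which encodes most of the cysteines. The members with a summit there were AT1G33607, AT2G03913, AT2G24625, AT4G08485, AT4G14276, AT5G08055, AT5G08315, AT5G48595, AT5G48605 and AT5G52605. The remaining coding summit, of score 42, was in the single coding segment of AT5G55565.

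Near copies went with inside summits in these genes. A near copy was taken as another place in the genome that aligned to a coding segment with at least 80% identity over at least 100 bp, a definition set after the summits had been seen. Of the 34 members with a near copy, 10 (29.4%, interval 16.8 to 46.2%) had a summit inside, against 4 of the 85 members without one (4.71%, interval 1.84 to 11.5%), a difference of 24.7 points. With 2 or more near copies it was 8 of 17 (47.1%, interval 26.2 to 69.0%), and with exactly 1 it was 2 of 17 (11.8%). Copies were counted from each member's own alignments, and these counts are not symmetric. AT5G46873 counted as without a copy although AT5G46877 aligned to it. AT5G52605 counted with 1 although AT5G39645 also aligned to it. In other genes up to 770 bp, 88 of 1024 with a near copy (8.59%) and 108 of 1576 without (6.85%) had a summit inside. In the gene-note genes it was 3 of 23 (13%) and 3 of 31 (9.68%). Of the 10 members with a copy and an inside summit, 9 had it in segment 2, and AT4G08039 had it in an intron. The 4 without a copy were AT1G31772, AT2G42885, AT4G08485 and AT5G55565. Within 1000 bp, the shares were 17 of 34 members with a copy (50%) and 28 of 85 without one (32.9%). Among members with no summit inside, 7 of 24 with a copy and 24 of 81 without one had a summit in a flank. Copies share their sequence and are not independent, and the deposited peaks came from uniquely mapping reads. Restricting to members with at least 90% unique 50-mers gave 9 of 28 with a near copy and 3 of 81 without. With summits of score at or above the median, the count fell to 5 of 34 with a near copy, against 4 of 85 without, a difference of 10 points.

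**Figure D3:**
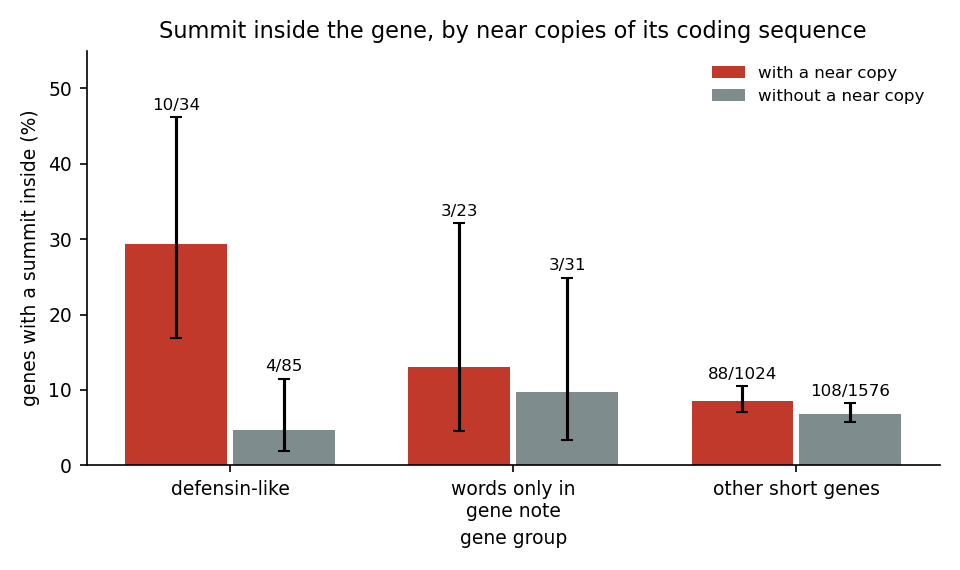
Share of genes with a Pol V summit inside (y axis, percent) for genes with and without a near copy of the coding sequence, in the defensin-like genes, the gene-note genes and other genes up to 770 bp (x axis). Bars are 95% Wilson intervals and labels give genes with a summit over genes, from 10/34 and 4/85 in the defensin-like genes to 88/1024 and 108/1576 in other short genes.

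The near copies formed 12 groups of members, of which 5 had at least 1 member with a summit inside. In the group of AT1G33607, AT5G08055 and AT5G08315, whose copies were 91.05 to 93.08% identical, 3 of 3 members had one. In the pair of AT5G48595 and AT5G48605 (92.9 to 93.8%) both members had one, and in the group of AT4G14276, AT5G39645 and AT5G52605 (89.6 to 93.8%) 2 of 3 did. AT2G24625, with a score of 349, and its copy AT2G24615 (88.5%) differed, in that AT2G24615 had no summit inside. AT2G03913, with a score of 39, likewise had a copy without an inside summit, AT2G03937 (80.7%). That gene had a summit 932 bp downstream instead, and the gene-note gene AT2G03955, another copy, had a summit with a score of 239. The other 7 groups had no inside summit, including AT3G59930 and AT5G33355, whose coding segments were identical over the 176 aligned bp. Reads lying wholly within that stretch could not map uniquely, and the peaks came from uniquely mapping reads. The lack of a summit in that stretch is therefore not informative.

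**Figure D4:**
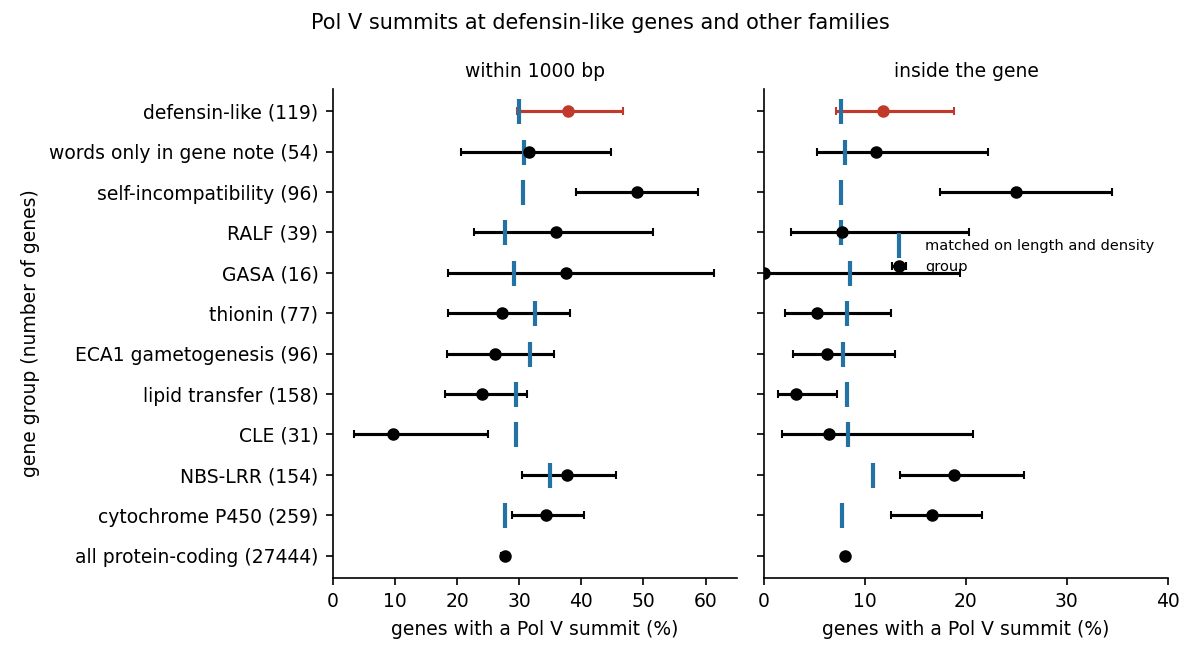
Share of genes with a Pol V summit within 1000 bp (left panel, x axis in percent) or inside the gene (right panel) for the defensin-like genes (red) and other gene groups (black), with 95% Wilson intervals and the share of genes matched on length and gene density (blue ticks). Defensin-like genes are at 37.8% and 11.8%, and the self-incompatibility group is above them in both panels.

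Other families of small secreted peptides and of clustered genes were set beside the members, chosen from words in the annotation. For these families the note of the gene itself was also read, which was not done for the members. With gene notes also read, the defensin-like set would be 173 genes, with 35.8% within 1000 bp and 11.6% inside. The S-protein homologs of the self-incompatibility group, named after a poppy stigma protein that rejects pollen, had more, with 47 of 96 genes within 1000 bp (49.0%) and 24 inside (25%). RALF genes, which encode peptides that make the apoplast alkaline, had 14 of 39 within 1000 bp (35.9%). Thionin genes, which also encode cysteine-rich antimicrobial peptides, had 21 of 77 (27.3%), and the lipid transfer proteins 38 of 158 (24.1%). The ECA1 gametogenesis group, cysteine-rich proteins related to those of the egg cell, had 25 of 96 (26%). CLE genes, which encode signalling peptides, had 3 of 31 (9.68%), and the gibberellin-regulated GASA genes 6 of 16 (37.5%). Among larger clustered families, NBS-LRR disease resistance genes had 58 of 154 (37.7%) and cytochrome P450 genes 89 of 259 (34.4%). Genes matched to each family on length and gene density differed in share. The matched share was 30.5% for self-incompatibility, 27.75% for RALF, 32.5% for thionin and 29.4% for lipid transfer genes. It was 31.7% for ECA1, 29.5% for CLE, 29.2% for GASA, 34.9% for NBS-LRR and 27.7% for P450 genes. The gene-note genes had 17 of 54 (31.5%) against 30.7% for their matched genes, close to background, and 6 of 54 inside the gene (11.1%). The members' interval within 1000 bp overlapped that of each of these groups other than CLE. Overlap of separate intervals does not show that groups are alike, and differences between the families were not tested. Inside the gene, the members had 11.8%, against 7.66% for their matched genes. This was below the NBS-LRR genes, with 29 of 154 (18.8%, against 10.8% for their matched genes). It was also below the P450 genes, with 43 of 259 (16.6%, against 7.70% for their matched genes). For the other families the matched share inside ran from 7.57% (RALF) to 8.465% (GASA). RALF genes had 3 of 39 inside (7.69%), CLE genes 2 of 31 (6.45%), the ECA1 group 6 of 96 (6.25%), thionin genes 4 of 77 (5.19%), lipid transfer genes 5 of 158 (3.16%) and GASA genes 0 of 16.

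Across gene density, the members' share was above that of other genes of like length in some quintiles and below it in others. In the quintile with the fewest neighbours (0 to 21 genes within 50 kb), 15 of 29 members had a summit within 1000 bp (51.7%), against 41.2% of other genes up to 770 bp and 46.6% of all other genes. In the next quintile it was 4 of 14 members (28.6%), against 37.0% of other short genes and 31.7% of all other genes. In the middle quintile it was 8 of 29 (27.6%), below the 31.8% of other short genes and above the 25.3% of all other genes. In the fourth it was 7 of 22 (31.8%), against 22.9% and 20.1%. In the quintile with the most neighbours (31 to 43 genes), 11 of 25 members had one (44.0%), against 18.6% of other short genes and 17.2% of all other genes. With 14 to 29 members in a quintile, the differences between quintiles were not tested. The median gene density was similar, 26 for members and 27 for all genes, and members with a summit had a median of 1902 bases outside genes within 1000 bp, against 1378 for members without one.

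**Figure D5:**
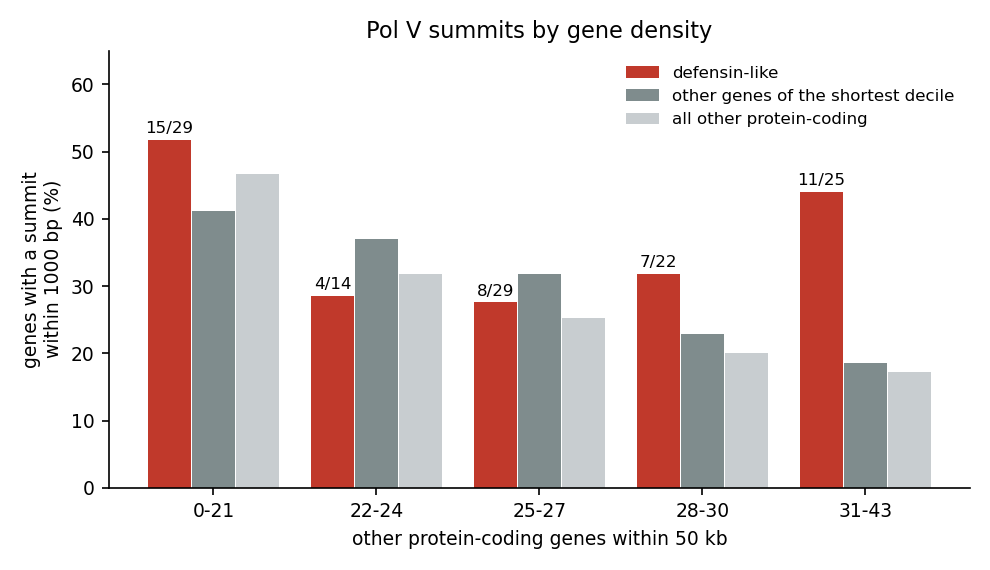
Share of genes with a Pol V summit within 1000 bp (y axis, percent) by the number of other protein-coding genes within 50 kb (x axis, quintiles) for defensin-like genes, other genes up to 770 bp and all other protein-coding genes. Labels give members with a summit over members. At the highest density the members are at 44.0% and the other genes at 17.2%.

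Members in tandem runs and single members were compared next, and their intervals overlapped. With a gap of at most 5000 bp between neighbours, 42 members fell into 17 runs, of which 13 members (31.0%) had a summit within 1000 bp, against 32 of 77 single members (41.6%), a difference of -10.6 points (interval -26.9 to 7.68). The difference was -4.54 points with summits of score at or above the median and -0.97 points with members found by product text alone. The longest run holds LCR85, AT4G22212, AT4G22214, AT4G22217, AT4G22230 and AT4G22235 at chr4:11752395-11764328, and it also has the most summits, 3. AT4G22214 had one at 908 bp downstream (score 625), AT4G22217 one at 324 bp upstream (score 325) and AT4G22235 one at 891 bp downstream (score 584), which was nearer to AT4G22240. LCR85, AT4G22212 and AT4G22230 had none, so summits in this run lay between genes and not inside them. By chromosome the share was 13 of 26 members on chromosome 2 (50%), 14 of 36 on chromosome 5 (38.9%) and 6 of 17 on chromosome 4 (35.3%). It was 9 of 28 on chromosome 1 (32.1%) and 3 of 12 on chromosome 3 (25%), with intervals that all overlapped. Over all protein-coding genes together it was 27.6%, and the share of all genes on each chromosome was not computed.

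The members with a symbol were mixed. PDF1.4 had no summit within 1000 bp, nor did LCR43 or LCR85. LCR65 had 2, of score 375 at 859 bp upstream, nearer to LCR64, and of score 264 at 356 bp downstream. LCR50 had 1, of score 51 at 374 bp downstream. AT5G55565, the longest member at 3572 bp, had a score of 42 and a score of 436 inside and a score of 545 at 520 bp upstream, and it has 78.6% unique 50-mers.

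Repeats and annotated pseudogenes were counted beside the members' summits. Within 201 bp windows at the summit, 26 of 55 member summits (47.3%) had another copy in the genome, against 44.7% of other gene-proximal summits, and 3 (5.45%) had 10 or more copies, against 11.9%. A pseudogene lay within 1000 bp of 11 members, and 4 of them had a summit, against 41 of the 108 members without one (38%). For other genes the shares were 45.8% with a pseudogene and 26.4% without. Of the 10 members with under 90% unique 50-mers, 4 had a summit, and 11 members overlap another protein-coding gene.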

How the data were processed

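The 4 FLAG ChIP-seq libraries, 1 per line, were mapped to their groups from the labels, and their signals were not analysed here. Per the study's methods, the authors aligned published Pol V and no-antibody reads to TAIR10 with Bowtie 1.0.0, allowed 2 mismatches and single-site reads only, dropped duplicates with SAMtools 0.1.19, and ran MACS2 on Pol V against no antibody with a q-value limit of 0.05. Summits of peaks above 2-fold enrichment were deposited. Pooling of replicates is not given in the sources used here. The deposited score is the whole number that the caller gave each peak. Unique mapping removes signal from exact repeats, a summit discards peak width, and depth is unknown. The list holds 11478 summits after 1 blank record was left out (0 unused columns of per-sample values).

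Gene models and sequence came from RefSeq TAIR10.1. Members and lists were chosen with earlier results of these data known. The genes named are every member with a summit inside, the 10 with the highest scores, those with the most summits, those with PDF, LURE, CRP810, ESF1 or ATTI symbols and the longest run, plus others named after their values were seen. Shares were computed in Python 3.11.15 with NumPy 2.4.6 and SciPy 1.17.1 and copies found with BLAST 2.17.0 (minimum 80% identity over 100 bp). Matching was by standardization over 10 length and 5 density classes, tested on simulated data. Intervals are 95% Wilson intervals. Intervals of differences were built from Wilson bounds, with matched shares taken as fixed, from order statistics for the median score and from a normal approximation over members for upstream minus downstream. Alternatives changed the score minimum, window, merging, member text, uniqueness, density window and run gap.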

Additional observations from a re-analysis of the deposited data

How the results depend on the processing

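Over 83 alternatives of 8 results, 79 stayed within the interval of the reported value, 4 moved outside it and 0 took the opposite sign. Among the 79, upstream minus downstream in members came to 0 with a window of 2000 bp and so had no direction. The share of members with a summit within 1000 bp was 37.8% as reported, 24.4% with summits of score at or above the median, 26.9% with a window of 500 bp and 54.6% with a window of 2000 bp. The difference in inside summits between members with and without a near copy was 24.7 points as reported and 10 points with summits of score at or above the median, and it was 21.8 to 31.96 points under the 7 other alternatives. The near-copy alternatives, the reading of gene notes and the omission of members that overlap another gene were chosen after seeing the data. The excess of members over matched genes within 1000 bp stayed between 4.85 points, when matched on length and bases outside genes, and 13.5 points, with a window of 2000 bp, and between 3.17 and 6.07 points inside the gene. The score difference was 11 to 78, lowest with summits of score at or above the median. Upstream minus downstream ran from -11.8 to 0 points and members in runs minus single members from -17.5 to -0.97 points, the smallest with product text only. No paired analysis was possible because there is 1 list of summits and 1 library per line. The list has no replicates, depth is unknown, and near copies and tandem neighbours are not independent.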
